A study of Mus musculus with 4 samples.

Results

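Tbx21, Ifng, Eomes and Hopx are 4 genes of the type 1 helper (Th1) program, and their chromatin was followed here in lung T helper cells of a mouse model that is dominated by the opposing type 2 (Th2) response. A region was counted to a gene when its midpoint lay inside that gene, or outside all protein-coding genes and nearest, within 100 kb, to a start or end of it. This took 56 of the 92372 entries of 6 lists of differentially accessible regions. Merged where they overlapped, they made 32 regions of 52537 in all: 3 of Tbx21, 8 of Ifng, 8 of Eomes and 13 of Hopx. All 4 genes had at least 1 listed region.

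Accessibility was measured by ATAC-seq, in which a transposase cuts and tags open DNA. Mice were sensitized to and challenged with extract of house dust mite, an allergen, and at day 15 4 populations of CD4+ T cells were sorted, in 3 biological replicates of 1000 cells each per the labels' protocols. Cells called Th2 were CD44+ ST2+ CD30L+, Treg (regulatory T) cells were CD25hi CD30L-, and other effector cells, described as memory cells outside the Th2 gate, were CD44+ ST2- CD30L+. These 3 came from lung with airways. Naive cells (CD44lo CD62Lhi) came from the mediastinal lymph node of the same model per the protocol, although their source label names lung and airways. Every comparison with naive cells is therefore also one between tissues, and the 2 cannot be told apart. All mice had received allergen, and the sources used here give no genotype, strain, sex or age. Day 15 is the titles' day. The description fields of naive and other effector cells read D10 instead.

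Each of the 6 lists holds, for 1 pair of populations, a position and the authors' log2 fold. Folds below are the values of the authors' deposited tables, given as sizes with the higher population named. The lists hold neither replicate values nor p-values nor read counts. Depth is thus unknown, folds carry no error or n, and nothing below could be tested. The smallest fold in any list was 3.41, so a region missing from a list may still differ by less. Fewer cells with an open region and a less open region per cell cannot be told apart in such bulk samples. The lists comparing other effector cells held 28175, 24765 and 17700 entries against Th2, Treg and naive cells, and in 0 of these was the other effector population the higher one. No population was sorted as Th1 cells. Memory cells of Th1 type usually lack ST2, so any that were CD30L+ would have been sorted with other effector cells, and no region more open in that population is on these lists. Whether the lists were filtered by direction is unknown.

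As background, naive T helper cells that receive interferon and interleukin-12 signals switch on T-bet, the T-box transcription factor encoded by Tbx21. T-bet opens and activates Ifng, the gene of interferon gamma, the signature Th1 cytokine, which is controlled by conserved elements scattered on both sides of the gene. Eomes encodes eomesodermin, a T-box factor related to T-bet that is best known in CD8 T cells and natural killer cells. Hopx encodes a small homeodomain protein that does not itself bind DNA, and in mice it has been studied in Th1 memory cells and in induced regulatory T cells.

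The start sites of Tbx21 and Hopx lay in listed regions, and their promoter windows (250 bases before to 50 after an annotated start, from RefSeq on GRCm38.p6, gene strand, 5′ to 3′) are printed because the populations differed there. All coordinates are GRCm38. Capitals mark bases inside a listed region. Tbx21, on chromosome 11, has 1 annotated window, at chr11:97115282-97115581 on the minus strand, and all 300 of its bases lay in a region that was highest in Treg cells. Hopx, on chromosome 5, has 2 annotated starts, 19.9 kb apart. Its upstream window, at chr5:77115074-77115373 on the minus strand, had 246 bases in a region highest in Treg cells. Its downstream window, at chr5:77095218-77095517 on the minus strand, had 259 bases in another region, listed only for Th2 over other effector cells.
Tbx21: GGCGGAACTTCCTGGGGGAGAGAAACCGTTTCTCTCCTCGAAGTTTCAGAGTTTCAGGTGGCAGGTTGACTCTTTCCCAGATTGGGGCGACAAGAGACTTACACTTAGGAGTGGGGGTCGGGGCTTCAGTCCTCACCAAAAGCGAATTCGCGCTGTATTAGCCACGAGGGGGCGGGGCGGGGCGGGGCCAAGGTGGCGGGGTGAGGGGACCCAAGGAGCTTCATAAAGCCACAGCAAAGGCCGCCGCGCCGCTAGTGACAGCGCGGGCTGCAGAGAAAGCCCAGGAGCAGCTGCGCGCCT
Hopx, upstream start: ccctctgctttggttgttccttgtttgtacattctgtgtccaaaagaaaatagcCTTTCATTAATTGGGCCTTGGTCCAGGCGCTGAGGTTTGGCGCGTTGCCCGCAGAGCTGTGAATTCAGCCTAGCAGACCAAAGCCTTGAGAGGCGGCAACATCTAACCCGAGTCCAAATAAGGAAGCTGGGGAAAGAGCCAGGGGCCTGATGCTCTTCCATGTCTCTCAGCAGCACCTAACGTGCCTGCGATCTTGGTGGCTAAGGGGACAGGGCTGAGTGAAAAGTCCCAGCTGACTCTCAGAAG
Hopx, downstream start: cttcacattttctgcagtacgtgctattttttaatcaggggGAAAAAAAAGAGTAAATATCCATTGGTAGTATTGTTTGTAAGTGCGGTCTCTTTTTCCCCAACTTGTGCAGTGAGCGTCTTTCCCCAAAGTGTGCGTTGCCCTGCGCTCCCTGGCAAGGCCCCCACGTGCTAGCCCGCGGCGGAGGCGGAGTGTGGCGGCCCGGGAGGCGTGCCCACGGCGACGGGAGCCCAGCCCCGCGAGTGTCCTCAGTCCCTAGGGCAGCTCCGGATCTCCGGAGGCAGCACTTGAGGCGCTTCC

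The windows of Ifng and Eomes overlapped no listed region. Over all 32815 distinct windows of the RefSeq table, 35.8% overlapped a region of some list, 0.43% one higher in Treg than in Th2 cells, 0.744% one higher in Treg than in naive cells and 27.4% one where Th2 exceeded other effector cells. The 5 windows of the 4 genes were searched on both strands for the letters of 5 short motifs, and each was set beside its share of all 32851 windows of that length. The T-box letters GGTGTGA, which T-bet and eomesodermin are known to bind, were in 0 of the 5 and in 3.98% of all windows. The letters AGATAA of GATA factors were in 0 and in 11.2% of all. The AP-1 letters TGANTCA were in 0 and in 7.81% of all. The letters TGTGGT of Runx factors were in 0 and in 16.8% of all. The STAT letters TTCNNNGAA were in 1, at the far upstream edge of the Ifng window, and in 8.3% of all. These are matches of letters only.

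Tbx21 had a different region highest in each of 2 lung populations. The region over its start site, on chromosome 11 at 97115235 to 97116258, was higher in Treg than in naive, Th2 and other effector cells. A second region inside the gene, at 97103746 to 97104450 and 11.2 kb downstream of the start, was higher in Th2 than in naive, Treg and other effector cells. Both were therefore listed between Treg and Th2 cells, in opposite directions.

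At the Tbx21 start the deposited folds of Treg cells were 5.29 over naive, 5.48 over Th2 and 5.3 over other effector cells. The region inside Tbx21 had deposited folds of 5.33 for Th2 over naive, 5.16 for Th2 over Treg and 5.16 for Th2 over other effector cells. These sizes are ordinary for the lists: the median over all regions was 5.72 for Treg over naive cells and 5.59 for Th2 over naive cells. The last region, 31.4 kb downstream of the start and beyond the end of the gene at 97083678 to 97084271, was listed only for Th2 over other effector cells, with a deposited fold of 5.26. For reference, 9.67% of all 52537 regions were higher in Th2 than in naive cells, 6.64% higher in Treg than in naive cells, 3.34% higher in Treg than in Th2 cells and 6.72% higher in Th2 than in Treg cells. Against other effector cells, 53.2% were higher in Th2 and 46.7% in Treg cells, so a region on those lists is common.

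Next to Tbx21, the gene Tbkbp1, which encodes a partner of the kinase TBK1, held 2 further regions higher in Th2 than in Treg cells, at 27.0 and 34.9 kb upstream of the Tbx21 start. Their deposited folds were 5.24 and 5.08 over Treg cells, and the same 5.24 and 5.08 over other effector cells. By the assignment rule they belong to Tbkbp1. Osbpl7, on the other side and an oxysterol-binding protein gene, had 3 regions, each listed only for Treg over other effector cells.

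**Figure D1:**
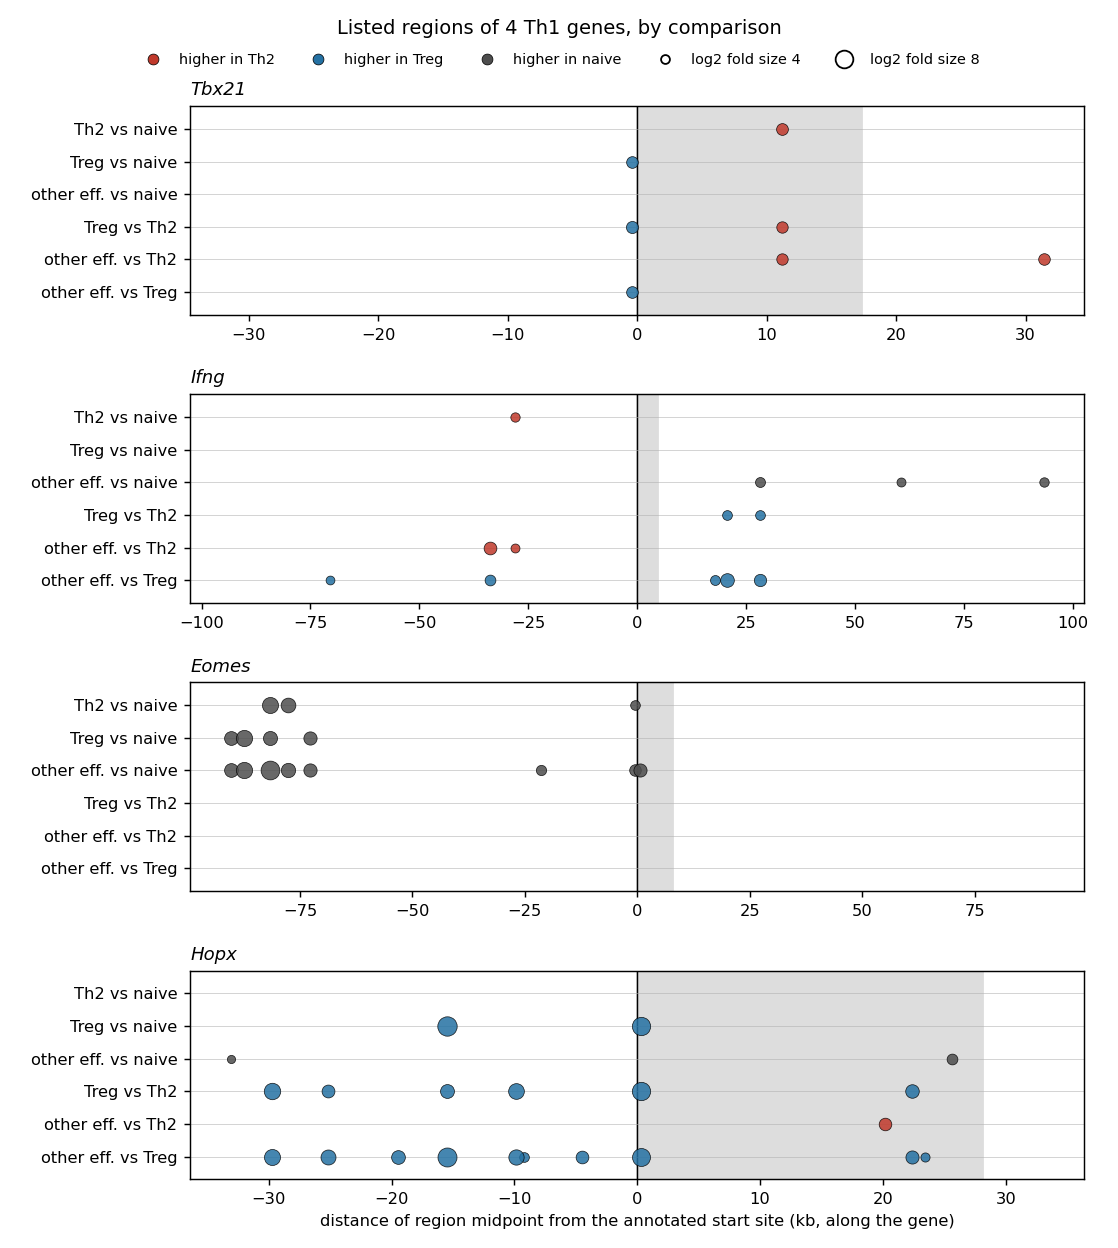
Regions of the 4 genes by distance of their midpoint from the annotated start (kb along the gene, grey band the gene itself) and by comparison (rows); colour gives the higher population and dot area grows with the square of the authors' log2 fold. Treg cells (blue) are the higher population of every listed pair at the Tbx21 start and at 10 of 13 Hopx regions, and naive cells (dark grey) at all 8 Eomes regions, although not every pair is listed at each region.

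Ifng, the cytokine gene that T-bet activates, had no listed region inside the gene or at its start. All 8 of its regions lay outside it, from 70.5 kb upstream to 93.3 kb downstream of the start on chromosome 10. The 2 regions listed with Th2 cells as the higher of a pair lay upstream, and the 2 higher in Treg than in Th2 cells lay downstream. Of the 13 deposited folds at Ifng, 10 were below the median of their list.

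At 28.1 kb upstream, at 118412627 to 118413202, Th2 cells were higher than naive cells with a deposited fold of 4.23 and higher than other effector cells with one of 4.06. By rank, 95.4% of entries higher in Th2 than in naive cells were as large or larger than that 4.23. At 33.9 kb upstream, at 118406868 to 118407447, Th2 cells exceeded other effector cells by 5.77 and Treg cells did by 4.87 in the authors' deposited tables. This region was listed in neither direction between Treg and Th2 cells. The most distant upstream region, at 70.5 kb, was listed for Treg over other effector cells alone, with a deposited fold of 3.99.

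Downstream of Ifng, the regions at 20.5 and 28.2 kb, at 118461351 to 118461729 and 118468931 to 118469492, were higher in Treg than in Th2 cells, with deposited folds of 4.42 and 4.41. Treg cells exceeded other effector cells there by 6.19 and 5.58 in the authors' deposited table. The 2 folds over Th2 cells rank near the bottom of their list, where 96.3% and 96.8% of entries were as large or larger. A region at 17.9 kb had a deposited fold of 4.5 for Treg over other effector cells. None of these downstream regions was listed between Treg and naive or between Th2 and naive cells. Other effector cells were lower than naive cells at 3 Ifng regions, against 33.7% of all regions on that list. The 3 lay 28.1, 60.6 and 93.3 kb downstream, with deposited folds of 4.51, 4.08 and 4.27. The entry at 28.1 kb, at 118468728 to 118469538, spans the Treg entry at 28.2 kb, and both are counted as the same merged region. Naive and Treg cells thus each exceeded other effector cells there. The region at 93.3 kb lay inside Ifngas1, a long noncoding RNA gene, which the rule does not count as a protein-coding gene. Of the genes beside Ifng, Iltifb, a cytokine gene of the interleukin-22 family, had no listed region. Dyrk2, a protein kinase gene, had 18, of which 12 were lower in other effector and 4 lower in Th2 than in naive cells.

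Eomes, the T-box factor of CD8 T and natural killer cells, was listed only with naive cells as the higher population: all 8 of its regions were lower in other effector than in naive cells. Treg cells were lower than naive cells at 4 of the 8, Th2 cells at 3 and all 3 lung populations at 1. Of all regions, 33.7% were lower in other effector, 5.76% lower in Treg and 9.21% lower in Th2 than in naive cells. In the count of regions lower in Treg than in naive cells, 99 of the 1835 genes with any such region had at least as many as Eomes.

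The centre of this pattern was a group of 5 regions 72.8 to 90.4 kb upstream of Eomes on chromosome 9, outside all protein-coding genes. The widest, at 118395962 to 118397100 and 81.7 kb upstream, was the only one lower in all 3 lung populations: by 7.27 in Th2, 6.37 in Treg and 8.49 in other effector cells relative to naive cells, in the authors' deposited tables. The last of these ranked 351 among 17700 entries, in the top 1.98%. At 90.4, 87.4 and 72.8 kb, Treg cells were lower than naive cells by 6.24, 7.36 and 5.99, and other effector cells by 6.23, 7.36 and 5.99, in the authors' deposited tables. At 77.6 kb, Th2 cells were lower by 6.66 and other effector cells by 6.48 in the authors' deposited tables. Which of these regions was listed for Th2 and which for Treg cells differed, and only the region at 81.7 kb was listed for both. The region at 72.8 kb lies inside the noncoding gene Platr11.

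Close to Eomes, a region 0.6 kb upstream of the start, at 118477296 to 118477832, was lower in Th2 than in naive cells by 4.38 and in other effector than in naive cells by 5.25 in the authors' deposited tables. A region just inside the gene, 0.7 kb downstream at 118478454 to 118479379, was lower in other effector than in naive cells alone, by 5.95. Treg cells were listed at neither. The region at 21.5 kb upstream was likewise listed for other effector cells alone, with a deposited fold of 4.65. Golga4, the next gene, which encodes a Golgi protein, had 2 regions, 1 of them lower in Th2 than in naive cells. The next annotated gene on the other side, LOC115486419, had 4, of which 2 in Th2 and 1 in Treg cells were lower than in naive cells, and 1 was higher in Treg than in naive cells.

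Some markers of CD8 T and natural killer cells were also lower than in naive cells. Of the 21 regions of 7 such genes, 8 (38.1%) were lower in Th2, 4 (19.0%) lower in Treg and 13 (61.9%) lower in other effector than in naive cells, against 9.21%, 5.76% and 33.7% of all regions. The 8 lower in Th2 cells came from 3 genes, with 3 each at Cd8b1 and Prf1 and 2 at Klrk1. In the other direction, 2 (9.52%) in Th2 and 0 in Treg cells were higher than in naive cells, 1 of them at Klrb1c, which had 0 lower in Th2 cells. Of the 21, 5 (23.8%) in Th2 and 6 (28.6%) in Treg cells were higher than in other effector cells. These shares were below the 53.2% and 46.7% of all regions, and at Eomes 0 regions were so listed. The 5 came from Klrb1c, with 3, and Klrk1, with 2. Cd8a was lower than naive in other effector cells alone, at 1 region, and Ncr1 and Gzma had no listed region. Of the 20 regions of B cell genes, 5, 2 and 17 were lower than naive in Th2, Treg and other effector cells. Whether such cells had a part in the Eomes result was not tested.

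Hopx had the most listed regions of the 4 genes, and 10 of its 13 were higher in Treg than in another population. At all 10 Treg cells exceeded other effector cells, at 6 of them also Th2 cells, and at 2 all 3 other populations. For other effector cells this was 76.9% of the 13, against 46.7% of all regions, so that list is common. For Th2 cells it was 46.2%, against 3.34%, and for naive cells 15.4%, against 6.64%. None of the Hopx regions was listed as lower in Treg cells, against 6.72% of all regions relative to Th2 and 5.76% relative to naive cells. Of the 1240 genes with any region higher in Treg than in Th2 cells, 5, Hopx included, had 6 or more.

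The region over the upstream Hopx start, on chromosome 5 at 77114423 to 77115319, was higher in Treg than in Th2 cells by 8.29, than in naive cells by 8.28 and than in other effector cells by 8.11 in the authors' deposited tables. It ranked 20 of 1759 for Treg over Th2 cells and 58 of 3491 for Treg over naive cells. The region 15.5 kb upstream, at 77130219 to 77130929, had deposited folds of 6.28 over Th2, 8.77 over naive and 8.6 over other effector cells. Its fold over naive cells ranked 14 of 3491, in the top 0.401%.

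A further 4 Hopx regions were higher in Treg than in Th2 cells but were not on the list against naive cells. Those at 9.9, 25.2 and 29.7 kb upstream had deposited folds over Th2 cells of 7.11, 5.81 and 7.44, and over other effector cells of 6.92, 6.79 and 7.26. The fourth lay inside the gene, 22.4 kb downstream of the upstream start, with 6.13 over Th2 and 5.94 over other effector cells in the authors' deposited tables. The 4 regions listed for Treg over other effector cells alone, at 4.5, 9.2 and 19.5 kb upstream and 23.4 kb downstream, had deposited folds of 5.75, 4.4, 6.21 and 4.13. So the span from the upstream start to 29.7 kb before it held 8 regions where Treg exceeded other effector cells, at 5 of which they also exceeded Th2 cells.

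The remaining 3 Hopx regions followed other populations. The region over the downstream start, at 77094437 to 77095476, was listed for Th2 over other effector cells with a deposited fold of 5.69 and was on no list with Treg or naive cells. Regions at 25.6 kb downstream and 33.1 kb upstream were lower in other effector than in naive cells, with deposited folds of 4.87 and 3.72. Beyond them, a region 76.7 kb upstream of Hopx that the rule counts to Spink2, a protease inhibitor gene, was higher in Th2 than in naive, Treg and other effector cells, with deposited folds of 5.02, 4.48 and 4.85. Thegl, on the other side, had 2 regions, each listed only against other effector cells, 1 with Th2 and 1 with Treg cells higher.

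**Figure D2:**
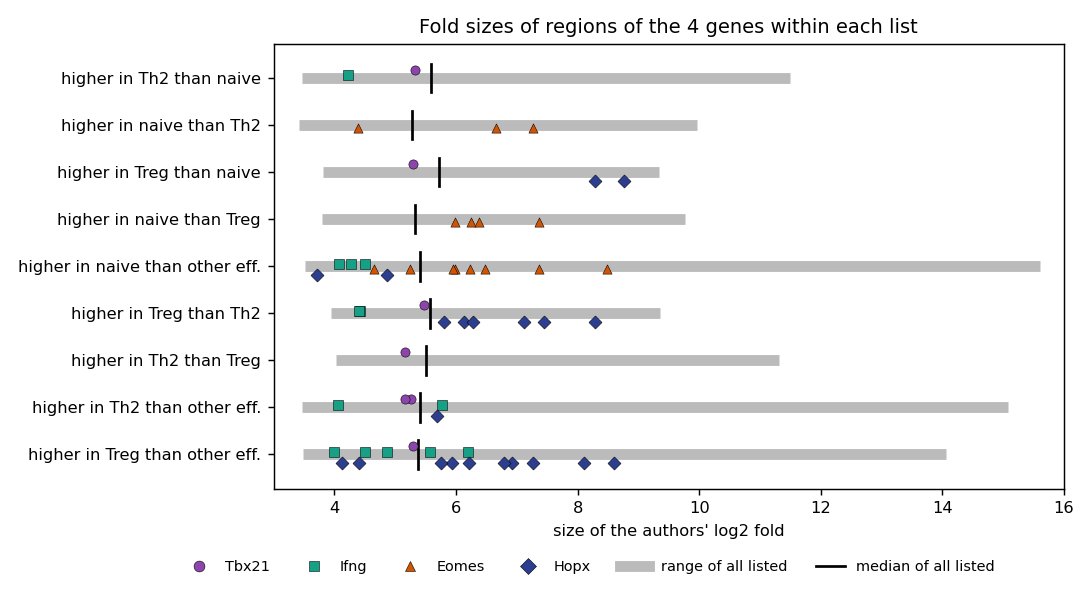
Sizes of the authors' log2 folds (horizontal axis) for regions of the 4 genes, by list and direction (rows); grey bars span all entries of a list in that direction and black ticks mark their median. Hopx regions lie above the median of every Treg list except for the 2 smallest over other effector cells, and most Ifng regions lie below the median.

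Set against all regions, the share of the 4 genes was higher for Treg over Th2 cells and lower for Th2 over other effector cells. Of their 32 regions, 9 (28.1%) were higher in Treg than in Th2 cells, against 3.34% of all regions, and without Hopx 3 of 19 (15.8%) were. Higher in Th2 than in Treg cells was 1 of 32 (3.12%), against 6.72%. With every region within 100 kb counted, whichever gene was nearest, the counts were 9 of 55 (16.4%) for Treg over Th2 cells and 4 of 55 (7.27%) for Th2 over Treg cells, so the low share of the second rests on the assignment. Regions of 1 gene lie side by side and were chosen by gene, so these shares are descriptions. Lower in other effector than in naive cells were 13 of 32 (40.6%), and without Eomes 5 of 24 (20.8%), against 33.7% of all regions. The shares with Treg over other effector cells (16 of 32, 50.0%) and lower in Th2 than in naive cells (3 of 32, 9.38%) were near those of all regions. Against naive cells, 2 (6.25%) were higher in Th2, 3 (9.38%) higher in Treg and 4 (12.5%) lower in Treg cells, against 9.67%, 6.64% and 5.76% of all regions. At 5 of 32 (15.6%) Th2 cells exceeded other effector cells, against 53.2% of all regions. By gene this was 2 of 3 for Tbx21, 2 of 8 for Ifng, 0 of 8 for Eomes and 1 of 13 for Hopx. With every region within 100 kb counted it was 14 of 55 (25.5%). The median deposited fold was 6.13 for the 9 entries of Treg over Th2 cells and 8.28 for the 3 of Treg over naive cells, against 5.57 and 5.72 over the whole lists. The 32 regions had a median width of 525.5 bp, against 497 bp in all, and 7 (21.9%) lay inside a gene, against 60.3% in all.

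Where 1 population was higher than 2 others at the same region, subtracting the deposited folds gave the difference between those 2 lower ones, since folds added up exactly at the 4 regions where all 3 lists of a triple could be compared. These differences mostly repeated a few values. Over 22761 such pairs in the whole series, 70.3% were within 0.01 of the commonest value of their pair of populations, for example -0.18 for Th2 minus other effector cells and -0.17 for naive minus other effector cells. Populations that differ by that commonest value are described below as being at a common bottom level. Whether that level is a count of 0 was not tested. The lists that share a population share its libraries, so the folds beside each other are not independent.

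Of 25 such pairs at the 4 genes, 16 were at the commonest value. For Tbx21 all 4 were: at the region inside the gene Treg, naive and other effector cells all sat at the bottom, and at the start Th2 and other effector cells did. Naive cells were not compared at the start, since their entry there ends at a different base. At the upstream Hopx start, Th2, naive and other effector cells were all at the bottom. The exceptions show intermediate populations. At the Hopx region 15.5 kb upstream, Th2 cells were 2.49 above naive and 2.32 above other effector cells, between them and Treg cells. At 25.2 kb upstream of Hopx, Th2 cells were 0.98 above other effector cells.

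Ifng had intermediate levels on its downstream side, where Th2 cells were 1.77 and 1.17 above other effector cells at 20.5 and 28.2 kb, while Treg cells were higher still. At the Eomes region 81.7 kb upstream, Treg cells were 2.12 and Th2 cells 1.22 above other effector cells, with naive cells highest. Near the Eomes start, at 0.6 kb upstream, Th2 cells were 0.87 above other effector cells. At the other 4 upstream Eomes regions the 2 lower populations compared were at the bottom.

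**Figure D3:**
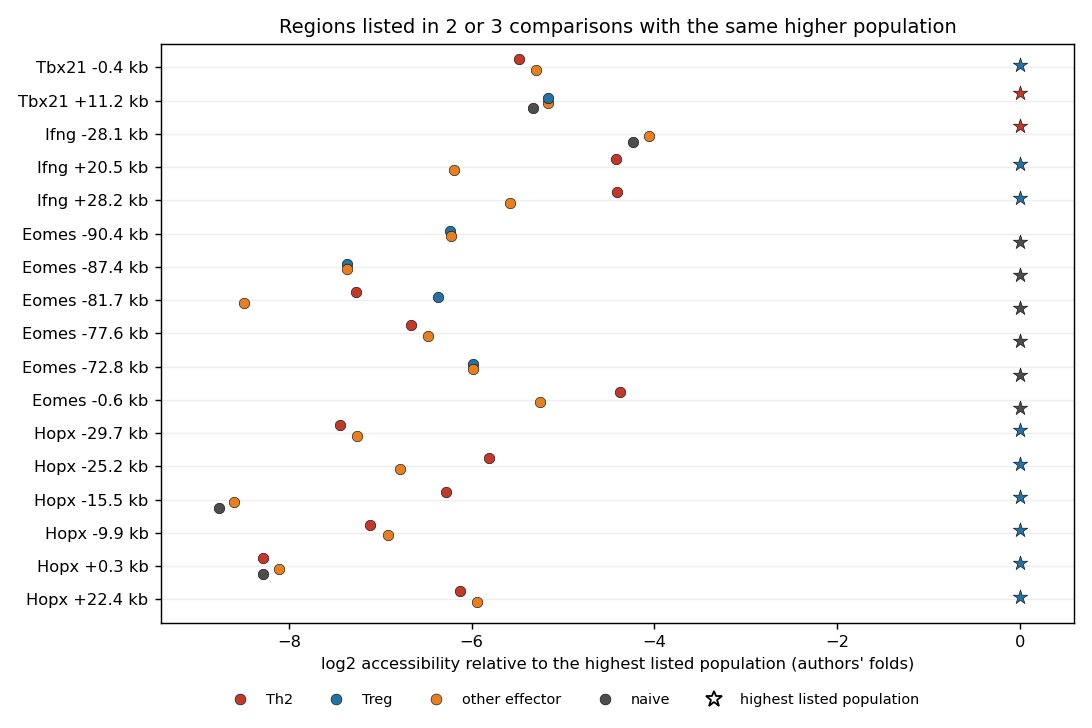
Level of each compared lower population (dots, log2 scale) relative to the highest listed population (star, set to 0) at the 17 regions of the 4 genes listed in at least 2 comparisons with the same higher population. Only entries with the same bounds in both lists are drawn, so naive cells are missing at the Tbx21 start. Dots that nearly coincide are populations at the common bottom level. Th2 cells stand above other effector cells at Hopx -15.5 and -25.2 kb, at Ifng +20.5 and +28.2 kb and at Eomes -81.7 and -0.6 kb.

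The wider Th1 program was read from 24 other genes, of which 21 had a listed region, 147 in all. Their shares higher in Th2 than in naive cells (28, 19.0%, against 9.67% of all regions) and higher in Treg than in naive cells (22, 15.0%, against 6.64%) were above those of all regions. Lower in Th2 than in naive cells were 17 (11.6%, against 9.21%), and lower in Treg than in naive cells 5 (3.4%, against 5.76%). Between the lung populations, 7 (4.76%) were higher in Treg and 14 (9.52%) higher in Th2 cells. The shares of all regions are 3.34% and 6.72%. Set against other effector cells, 73 (49.7%) were higher in Th2 and 70 (47.6%) in Treg cells, and 52 (35.4%) were lower in other effector than in naive cells, all near the shares of all regions.

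Runx3, a factor that works with T-bet at Ifng, had the most regions, 20, with 4 higher in Th2 than in Treg cells and 0 the other way. Ifngr1, a chain of the interferon gamma receptor, had 14, of which 2 were higher in Treg than in Th2 cells. Klrg1, a receptor of late effector cells, had 13, with 7 in Th2 and 6 in Treg cells higher than in naive cells. Irf1, a factor induced by interferon, and Fasl, the death ligand, had 11 each, and Fasl was lower in Treg than in naive cells at 4. Stat4, which carries the interleukin-12 signal, also had 11, with 4 higher and 0 lower in Treg, and 1 higher and 2 lower in Th2, than in naive cells. Il12rb2, a chain of the interleukin-12 receptor, had only naive-higher regions against naive cells: of its 8 regions 4 were lower in Th2, 1 lower in Treg and 7 lower in other effector than in naive cells. Cxcr3, the Th1 chemokine receptor, Cxcr6 and Twist1 had no listed region.

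**Figure D4:**
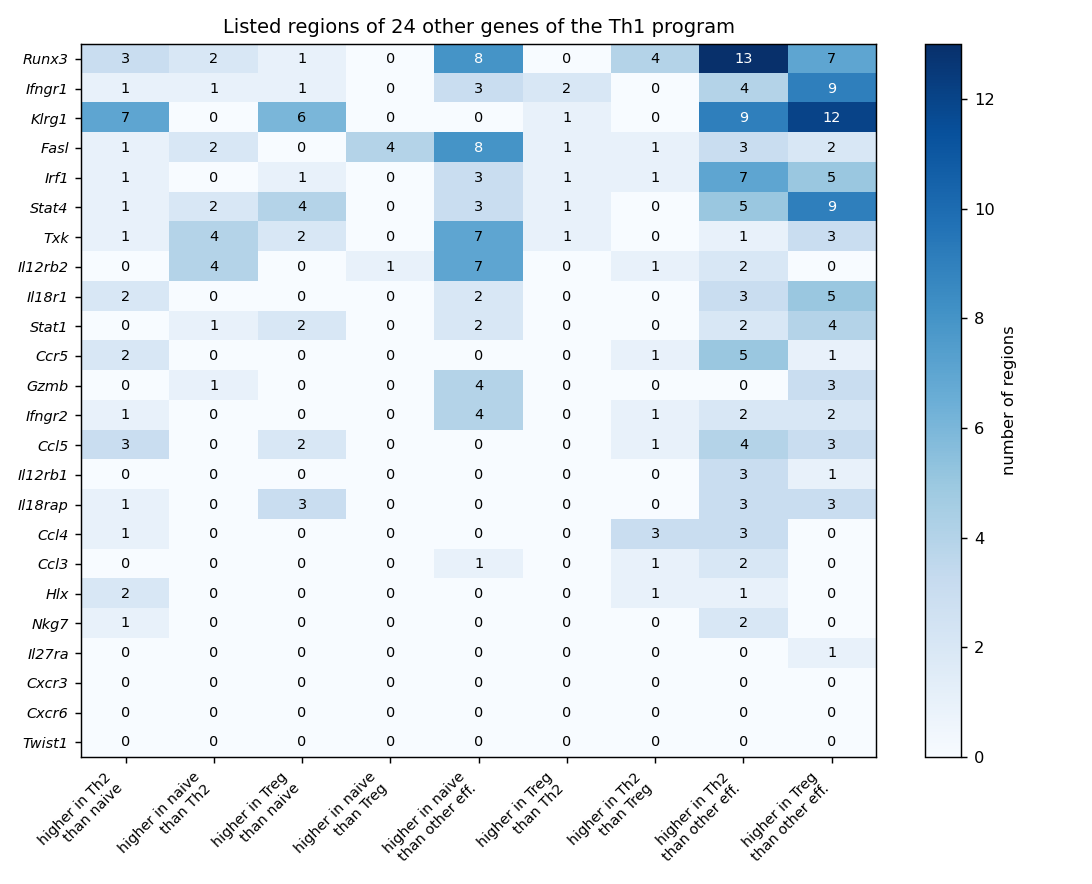
Number of listed regions (cell values and shading) of 24 other genes of the Th1 program (rows, ordered by their total number of regions) in each list and direction (columns). Against naive cells, Klrg1 carries only regions higher in Th2 or Treg cells, and Il12rb2 only regions higher in naive cells. Runx3, Stat4 and Txk carry regions in both directions.

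The labels of the populations were checked on marker genes, which were also used to read the sign of the folds. Regions of 5 Th2 genes were higher in Th2 than in naive cells at 19 of 40 (47.5%, against 9.67% of all regions) and lower at 0 (against 9.21%). Of the 19, 11 belonged to Il1rl1, which encodes the sort marker ST2. Il1rl1 was also higher in Treg than in naive cells, at 9 regions. Between Treg and Th2 cells, 1 of the 40 was higher in Treg cells, at Gata3, and 1 was lower in Treg cells, at Il13. These are 2.5% each, against 3.34% and 6.72% of all regions, so this list did not separate them. Gata3 had none with Th2 over naive cells. Regions of 4 Treg genes, among them Il2ra of the sort marker CD25, were higher in Treg than in Th2 cells at 17 of 69 (24.6%, against 3.34%). They were lower at 0 (against 6.72%). Regions of 6 naive genes were lower in Th2 than in naive cells at 73 of 177 (41.2%, against 9.21%) and higher at 1 (0.565%, against 9.67%). Of 18 regions of myeloid genes, 2 in Th2 (11.1%, against 9.67%) and 1 in Treg cells (5.56%, against 6.64%) were higher than in naive cells. Another count, 2 (11.1%, against 6.72%), was higher in Th2 than in Treg cells.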

How the data were processed

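ATAC-seq was made on 4 sorted T helper populations. The deposited tables give, per region, a log2 fold by the authors' tool DiffBind, per the submitters' processing notes, which name build mm9 and no version. The sources used here give no aligner, peak caller, read shift, normalization or threshold. Coordinates were taken as GRCm38, and the deposited starts, read as 0-based, are given here as 1-based. On that build, 21.3% of 59843 distinct entries lay within 1 kb of a gene start or end of the RefSeq GRCm38.p6 table, against 4.24% to 6.14% after shifts of 10 to 1000 kb. Folds were read as first-named minus second-named population, since they added up in triples (largest residual 0) and naive marker genes were higher in naive cells. No triple linked naive with other effector cells. There the sign was read from that list (146 of its 177 regions), and with naive cells as the higher population the commonest differences between lower populations had the values seen with Th2 or Treg cells as the higher one (0 for Treg and -0.18 for Th2 minus other effector cells). The list is therefore no independent evidence of direction.

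Entries overlapping by at least 1 bp were merged into 52537 regions, the background for shares. A region held by several genes was counted to each. The genes and gene lists were chosen with earlier results of these data known. Named were the 4 genes with all their regions, the 5 other Th1 genes with most regions, Cxcr3, Stat4, Il12rb2 and Runx3, and the flanking genes. Cxcr6, Twist1 and Txk were named after their values were seen. No statistical test was possible, since the lists hold no replicates. The assignment was checked against a brute-force search on artificial intervals. Python 3.11.15 with pandas 2.3.3, numpy 2.4.6 and matplotlib 3.10.9 was used.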

Additional observations from a re-analysis of the deposited data

How the results depend on the processing

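No paired analysis was possible because the lists hold no replicate values. Of 100 values under alternatives, over 31 results, 62 were classed as similar to the reported value and 38 as moved. Merging at 50% overlap moved none. The similar class was broad. Hopx had 19 regions instead of 13 with any region within 100 kb counted, and 9 with a fold of at least 5. Regions with Treg over other effector cells went from 16 to 11 with a fold of at least 5. The values that follow are those classed as moved. With regions outside genes assigned only within 10 kb, the regions of Ifng fell to 0, of Eomes to 2 and of Hopx to 8. The 4 genes then had 1 region higher and 1 lower in Th2 than in naive cells, 0 lower in Treg and 3 lower in other effector than in naive cells, 4 higher in Treg than in Th2 cells, and 7 in Treg and 2 in Th2 cells higher than in other effector cells. The median fold of Th2 below naive cells became 4.38. Other Th1 genes had 15 with Th2 over naive, 2 with Treg below naive, 7 with Th2 over Treg and 45 with Th2 over other effector cells. Counting only regions inside the gene left Tbx21 with 1, Ifng with 0, Eomes with 1 and Hopx with 5, and the 4 genes with 1 higher and 0 lower in Th2 and 1 higher and 0 lower in Treg than in naive cells, 2 lower in other effector than in naive cells, 2 higher in Treg than in Th2 cells, and 3 in Treg and 2 in Th2 cells higher than in other effector cells. Counting any region within 100 kb gave Tbx21 19, and the 4 genes 4 higher in Th2 than in Treg cells and 14 in Th2 and 31 in Treg cells higher than in other effector cells. With a fold of at least 5, Ifng had 3 regions, and the 4 genes 1 higher in Th2 and 7 lower in other effector than in naive cells. Other Th1 genes then had 11 lower in Th2 than in naive cells, 3 higher in Treg than in Th2 cells, 9 with Th2 over Treg and 45 with Th2 over other effector cells. These changes follow from fewer or more regions counted. Distal regions carry all Ifng and most Eomes values, and which gene they act on was not measured. The lists bound every result: regions below their unknown threshold are missing, other effector cells never appear as the higher population, naive cells came from a lymph node per the protocol but not the source label, and depth and replicate spread are unknown.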
